A study of Danio rerio with 12 samples.

Results

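The comparison set whole zebrafish larvae exposed to 1 ppm perfluorooctanesulfonate (PFOS) against larvae exposed to 0.03 ppm, the highest and the lowest dose of the series. It asks which transcripts differ between a high and a low exposure when both groups carry the chemical. Its members are the 3 libraries titled 1 ppm PFOS and the 3 titled 0.03 ppm PFOS, 6 of the 12 libraries in the series, and the 21726 of 26873 genes with a normalised count of at least 10 in at least 3 of those 6. The solvent controls and the 0.3 ppm libraries took no part in the test and are quoted only as reference levels.

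PFOS is a persistent fluorinated surfactant that binds to serum and fatty acid binding proteins and accumulates in liver. In vertebrates it is known as an activator of peroxisome proliferator-activated receptors, the nuclear receptors that control fatty acid oxidation, and as a disturber of lipid and bile acid handling. In a zebrafish larva living on its yolk, the liver, intestine and yolk syncytial layer assemble the lipoproteins that carry yolk lipid to the other tissues.

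All larvae were wild type and were taken at 5 days post fertilization (dpf), a stage the labels call eleutheroembryo. Both groups took up PFOS potassium salt through the water between 2 and 5 dpf, in fresh solutions made daily with 0.2% DMSO, which the solvent controls received without PFOS. Each library came from 10 pooled whole larvae, so a value is an average over animals and over all tissues. The labels do not say whether the pools came from separate clutches or tanks, so a p-value here measures only the spread between these libraries, which may be technical.

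The libraries summed to between 24061372 and 29417711 normalised counts at 0.03 ppm and between 24829035 and 31907243 at 1 ppm. Replicate 2 of both groups stood apart. On the first principal component of the 6 libraries, which carried 44.8% of the variance, the replicate 2 libraries lay at 59.4 (0.03 ppm) and 32.6 (1 ppm) and the other 4 between -44.8 and -6.89. Epidermis and keratin genes took 12.2% and 12.1% of all counts in these replicate 2 libraries and 5.98% to 8.48% in the other 4. The values of replicate 2 are therefore given separately for a number of results. Leaving out replicate 2 of both groups was planned for the number of genes called. For list medians and single genes it was not planned.

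Across all genes tested, a single gene differed between the doses at an adjusted p under 0.05 (limma with Benjamini-Hochberg adjustment), which is 0.00460% of the 21726. The second smallest adjusted p was 0.972. An unadjusted p under 0.05 was reached by 691 genes (3.18%), 311 higher and 380 lower at 1 ppm. The groups did not overlap, meaning that every 1 ppm library lay above or below every 0.03 ppm library, for 1394 genes (6.42%): 631 higher (2.90%) and 763 lower (3.51%). With 3 interchangeable libraries a group, average shares of about 0.05 for the unadjusted p and 0.1 for groups without overlap would arise. Neither was exceeded in this fit, so these counts are a description. The number at an unadjusted p under 0.05 depended on the fit. It was 1784 with a replicate block and 1498 with library weights, both above a share of 0.05. With libraries left out it ran from 204 (replicate 3 of both groups) to 2065 (1 ppm replicate 2). Differences larger than 2-fold on the log2(count + 1) scale were seen in 185 genes, 91 higher and 94 lower, and 83 of these had groups without overlap. The median log2 fold change over all genes was 0.02, with a median standard error of 0.232, so that for a typical gene the 95% interval reached 1.44-fold to either side of its estimate.

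**Figure D1:**
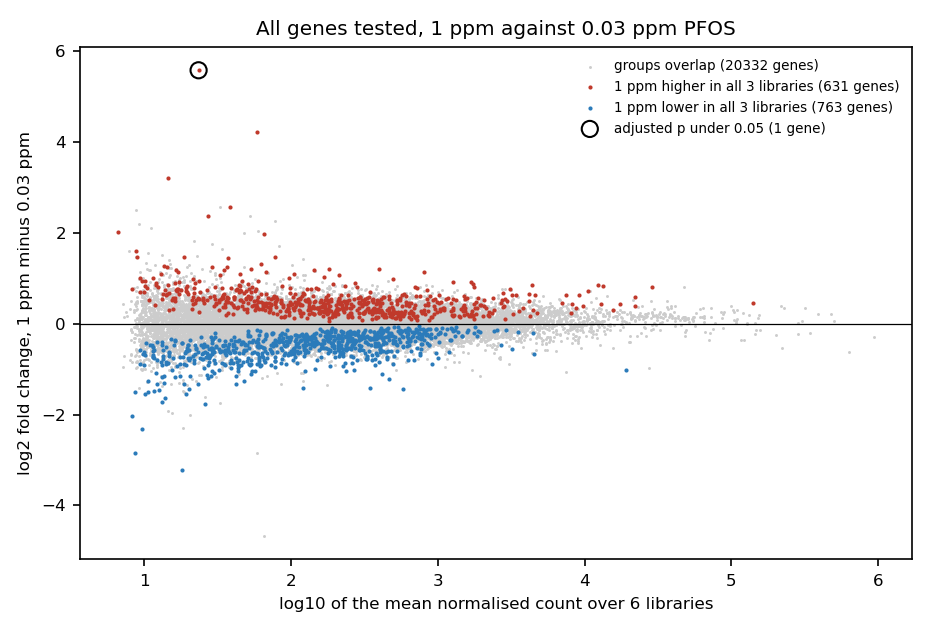
Log2 fold change (1 ppm minus 0.03 ppm, on log2 of the normalised count plus 1) against the log10 mean normalised count over the 6 libraries, 1 point per gene tested. Red and blue points are the 631 and 763 genes whose groups did not overlap, grey points the rest, and the circle marks the 1 gene with an adjusted p under 0.05.

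The gene called was FO904928.1 (ENSDARG00000100529), a protein-coding gene that the files carry under a clone name and that the reference table of gene names lists as sh3bp5a, a member of the SH3-domain binding protein family. It was listed at 0 in the 3 libraries of 0.03 ppm and at 47, 45 and 49 normalised counts in replicates 1, 2 and 3 of 1 ppm (limma adjusted p = 0.00713, higher in 3 of 3 libraries). The groups did not overlap and no fold change is given against a group listed at 0. FO904928.1 passed the filter, at least 10 in at least 3 of the 6 libraries, only through the 1 ppm libraries. The 0.03 ppm libraries, all at 0, added no spread to the fit. Its adjusted p is therefore conditional on its high values at 1 ppm. The solvent controls were also listed at 0 in all 3 libraries, and the 0.3 ppm libraries at 42, 16 and 72. The call was lost when any single 1 ppm library was left out (adjusted p = 0.175, 0.143 and 0.176 without replicates 1, 2 and 3), with the fold change the fit gave nearly the same each time.

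The files hold a second gene named sh3bp5a (ENSDARG00000008336). It had 540, 543 and 622 normalised counts at 0.03 ppm and 576, 404 and 582 at 1 ppm, a log2 fold change of -0.14 (SE 0.185), and its groups overlapped. Summed over both identifiers, which was tried after the values were seen, the counts were 540, 543 and 622 at 0.03 ppm and 623, 449 and 631 at 1 ppm. The sums averaged 568 ± 46.5 and 568 ± 103 (SD, n = 3), a log2 fold change of -0.02 (SE 0.180, limma adjusted p = 0.998). Reads of genes with nearly the same sequence can be divided between identifiers by the counting step, so the level of FO904928.1 on its own is uncertain. Whether these identifiers share reads was not tested.

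**Figure D2:**
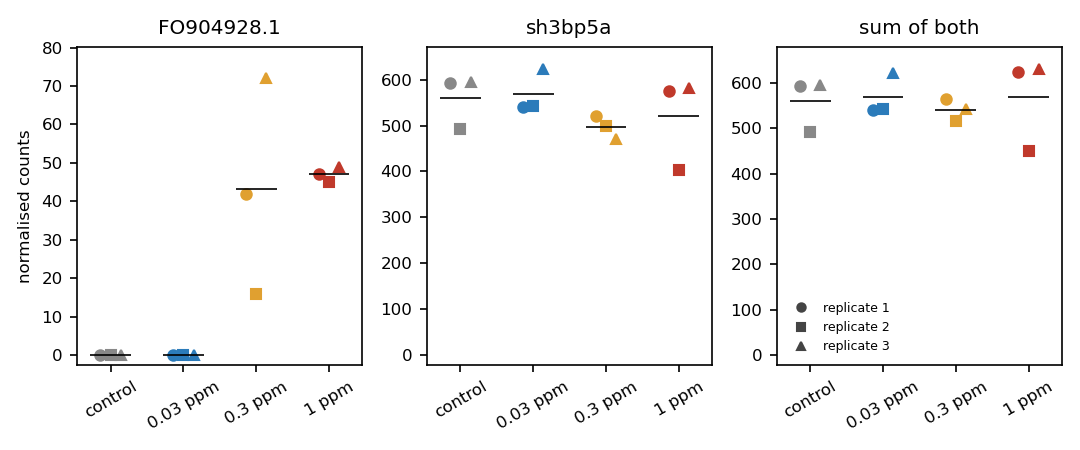
Normalised counts of FO904928.1, of the gene named sh3bp5a in the files and of their sum, in each of the 12 libraries by dose, with marker shape giving the replicate and a line at the group mean. FO904928.1 is at 0 in the control and 0.03 ppm libraries and between 16 and 72 at the 2 higher doses, whereas the sums at 0.03 ppm and 1 ppm overlap.

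Beyond that gene, the named genes are those with the smallest unadjusted p among genes with a symbol, a mean of at least 50 and no overlap between the groups, 12 in each direction, of which 11 higher and 12 lower genes are reported. Their adjusted p lay between 0.972 and 0.998, so none of them passed the test and their values are a description. The genes higher at 1 ppm include enzymes and secreted proteins of lipid and glucose metabolism and the acute phase. The genes lower at 1 ppm include receptors, guidance cues and proteins of skin and matrix.

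Among the enzymes of lipid metabolism, fads2 (ENSDARG00000019532), the desaturase of polyunsaturated fatty acid synthesis, had 549, 379 and 602 normalised counts in the 0.03 ppm libraries and 1108, 1086 and 1127 in those of 1 ppm. The 1 ppm libraries lay close together and all stood above the highest 0.03 ppm library. The means were 510 ± 117 and 1107 ± 20.5 (SD, n = 3), a log2 fold change of 1.14 (SE 0.192, unadjusted p = 0.000219, limma adjusted p = 0.972). The controls averaged 623 and the 0.3 ppm libraries 768. Beside it, from the list of fatty acid and triglyceride synthesis and not among the genes with the smallest p, elovl2, the elongase that acts on the products of fads2, had 612, 1041 and 945 at 0.03 ppm and 2197, 1140 and 1663 at 1 ppm (log2 fold change 0.93, SE 0.276). Its groups did not overlap, although 1 ppm replicate 2 lay close to the highest 0.03 ppm library. From the same list me1, the malic enzyme that supplies NADPH for lipid synthesis, had means of 317 ± 23.3 and 456 ± 67.7 (log2 fold change 0.51, SE 0.169).

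Returning to the genes with the smallest p, apoa4b.3, one of several neighbouring apolipoprotein A-IV genes, had 1039, 1229 and 1579 against 2165, 2586 and 1974 (log2 fold change 0.82, SE 0.193). Its groups were apart in all 3 libraries of each dose. ces3, a carboxylesterase, had 1196, 1171 and 1362 against 1767, 1840 and 1849 (log2 fold change 0.55, SE 0.141). a2ml, which encodes a protease inhibitor of plasma, had 1878, 2539 and 1970 against 3850, 3013 and 3338 (log2 fold change 0.68, SE 0.177).

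crp (ENSDARG00000056498), a pentraxin of the C-reactive protein family made in the acute phase, had 1298, 1129 and 1049 normalised counts at 0.03 ppm and 2019, 2205 and 2372 at 1 ppm. The means, 1159 ± 127 and 2199 ± 177, gave a log2 fold change of 0.93 (SE 0.153, unadjusted p = 0.000194, limma adjusted p = 0.972). cda (ENSDARG00000038199), the cytidine deaminase of pyrimidine salvage, had the smallest unadjusted p of the named genes, 0.000105. It stood at 258, 244 and 215 in the 0.03 ppm libraries and at 447, 604 and 607 in those of 1 ppm, a log2 fold change of 1.2 (SE 0.181), with controls at a mean of 323. g6pca.1, the catalytic subunit of the phosphatase that releases glucose from the liver, had 201, 199 and 165 against 333, 285 and 450 (log2 fold change 0.89, SE 0.209).

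The coagulation factor VII gene F7 (ENSDARG00000099192) had 2, 30 and 1 normalised counts at 0.03 ppm and 96, 101 and 120 at 1 ppm, with controls at 140, 93 and 0. The level of this identifier thus ranged from 0 to 140 among libraries without PFOS. The files name other factor VII genes, and the sum over 3 identifiers (ENSDARG00000099192, ENSDARG00000100782 and ENSDARG00000034862), formed after the values were seen, was 388, 572 and 415 at 0.03 ppm and 688, 679 and 710 at 1 ppm. The sums averaged 458 ± 99.4 and 692 ± 16.0 (SD, n = 3), a log2 fold change of 0.62 (SE 0.180) in place of 4.22 (SE 0.873) for the single identifier. Here the groups stayed apart after summing, with an adjusted p of 0.998 from limma. Without replicate 2 of 0.03 ppm, the library at 30, the single identifier passed the test (limma adjusted p = 0.00716). That fit lacks the highest 0.03 ppm value, and the libraries of that dose left in it were at 2 and 1. The 1 ppm libraries alone carried this identifier through the filter. Its adjusted p is therefore conditional on its high values at 1 ppm and is a description.

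The remaining genes of this direction were afp4, a protein related to antifreeze proteins of fish, with 30, 37 and 58 normalised counts at 0.03 ppm and 129, 95 and 117 at 1 ppm. klhl13, an adaptor of a ubiquitin ligase, had 48, 42 and 35 against 74, 105 and 101. ddit4, a stress-induced inhibitor of the growth kinase mTOR, had 373, 240 and 377 against 592, 513 and 865 (log2 fold change 0.98, SE 0.250). For ddit4 the control mean, 654, was close to the 1 ppm mean of 657, and the 0.03 ppm mean of 330 was below both.

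**Figure D3:**
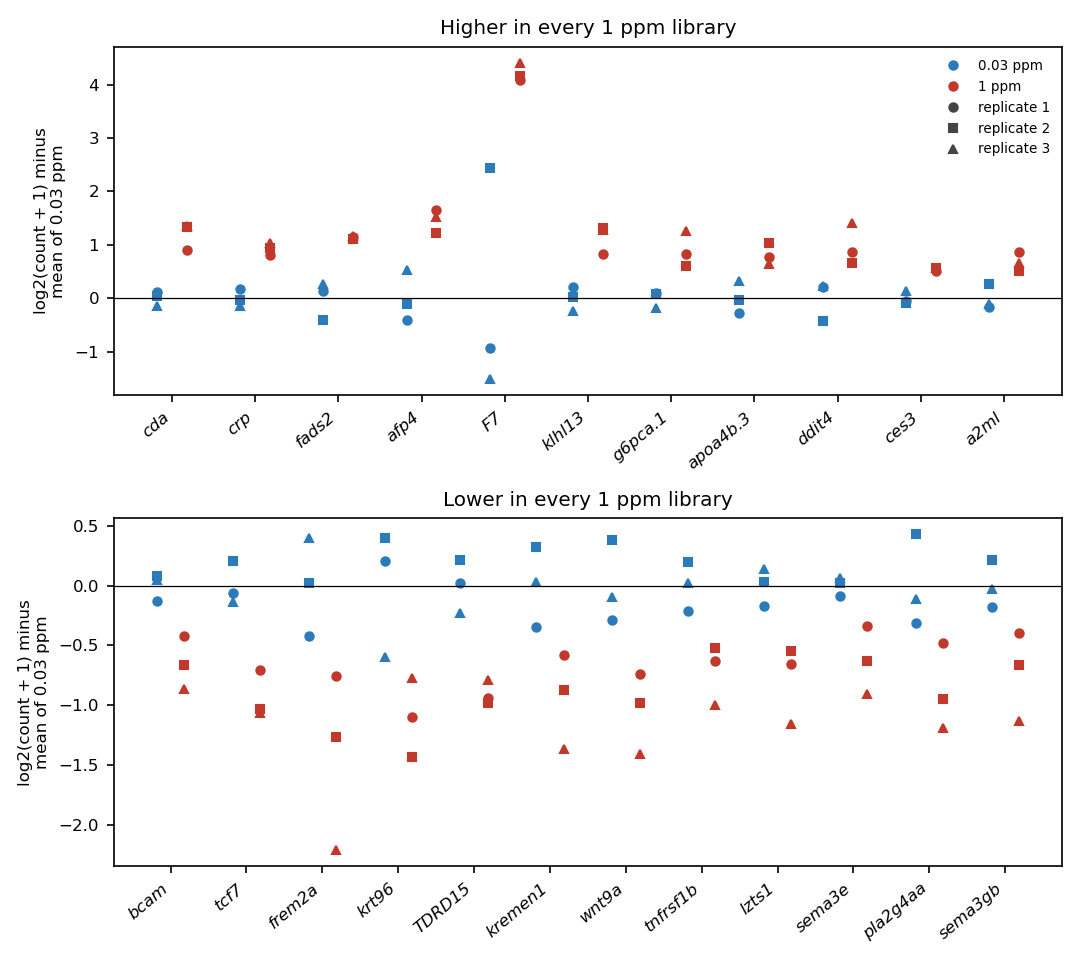
Log2(normalised count + 1) of 11 named genes higher and 12 lower at 1 ppm in each of the 6 libraries, relative to the mean of the 3 libraries of 0.03 ppm, with colour giving the dose and shape the replicate. No gene shows overlap between the doses, which was a condition of naming, and F7 is the gene with the widest spread at 0.03 ppm.

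Among the genes lower at 1 ppm, krt96 (ENSDARG00000095147), a keratin, had 630, 723 and 361 normalised counts at 0.03 ppm and 256, 202 and 321 at 1 ppm. The lowest 0.03 ppm library, replicate 3, lay just above the highest of 1 ppm. The means were 571 ± 188 and 260 ± 59.6 (SD, n = 3), a log2 fold change of -1.10 (SE 0.281, unadjusted p = 0.00363, limma adjusted p = 0.998), while the controls averaged 1581 and the 0.3 ppm libraries 276. frem2a, a matrix protein that holds epidermis to dermis in the fins, had 363, 494 and 639 against 288, 202 and 104 (log2 fold change -1.41, SE 0.359). bcam, an adhesion molecule that binds laminin, had 1090, 1259 and 1231 against 890, 753 and 654 (log2 fold change -0.65, SE 0.164). For frem2a and bcam the controls, at means of 294 and 868, lay nearer to the 1 ppm libraries than to those of 0.03 ppm.

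Of the other genes lower at 1 ppm, tcf7, a transcription factor of Wnt signalling, had 77, 93 and 73 normalised counts at 0.03 ppm and 49, 39 and 38 at 1 ppm (log2 fold change -0.93, SE 0.237, controls at a mean of 43.3). wnt9a, a Wnt ligand, had 62, 99 and 71 against 45, 38 and 28 (log2 fold change -1.04, SE 0.287). kremen1, a receptor for the Dickkopf antagonists, had 230, 366 and 300 against 196, 160 and 113 (log2 fold change -0.94, SE 0.256). No list of Wnt genes was set up, so these are 3 single genes and not a count over the pathway.

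The other 6 were sema3e, sema3gb, tnfrsf1b, pla2g4aa, lzts1 and TDRD15. sema3e and sema3gb, which encode secreted semaphorins that guide axons and vessels, had means of 490 ± 26.2 and 563 ± 78.1 at 0.03 ppm and 321 ± 63.1 and 344 ± 84.9 at 1 ppm. tnfrsf1b, a receptor for tumour necrosis factor, had 241, 321 and 284 normalised counts against 181, 195 and 140. pla2g4aa, a phospholipase that releases arachidonic acid, had 264, 443 and 303 against 235, 170 and 143. The control means of sema3e and sema3gb, 289 and 338, lay below the means of both doses. Those of pla2g4aa and lzts1, 223 and 133, lay between the dose means and nearer to 1 ppm. For tnfrsf1b the control mean, 281, was close to the 0.03 ppm mean of 282 and above the 1 ppm mean of 172. The control mean of TDRD15, 74.3, lay above both dose means.

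The gene lists were read next, by the number of members above or below and by the median log2 fold change, set beside the same values for all genes tested. Over all genes 11442 of 21726 (52.7%) had a higher mean log2 value at 1 ppm, and the median was 0.02 with quartiles of -0.14 and 0.18. None of the list members was called at an adjusted p under 0.05, against 0.00460% of all genes. Counts of members with groups apart stand beside the 2.90% of all genes apart and higher and the 3.51% apart and lower. A difference between the doses does not by itself say which dose departs from the controls. In whole larvae, fewer cells of a type and less RNA per cell cannot be told apart. Members of a list vary together from library to library, so a run of members on one side counts for less than their number. Some genes belong to several lists, with 1732 entries for 1632 symbols, so the lists are not independent of each other.

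**Figure D4:**
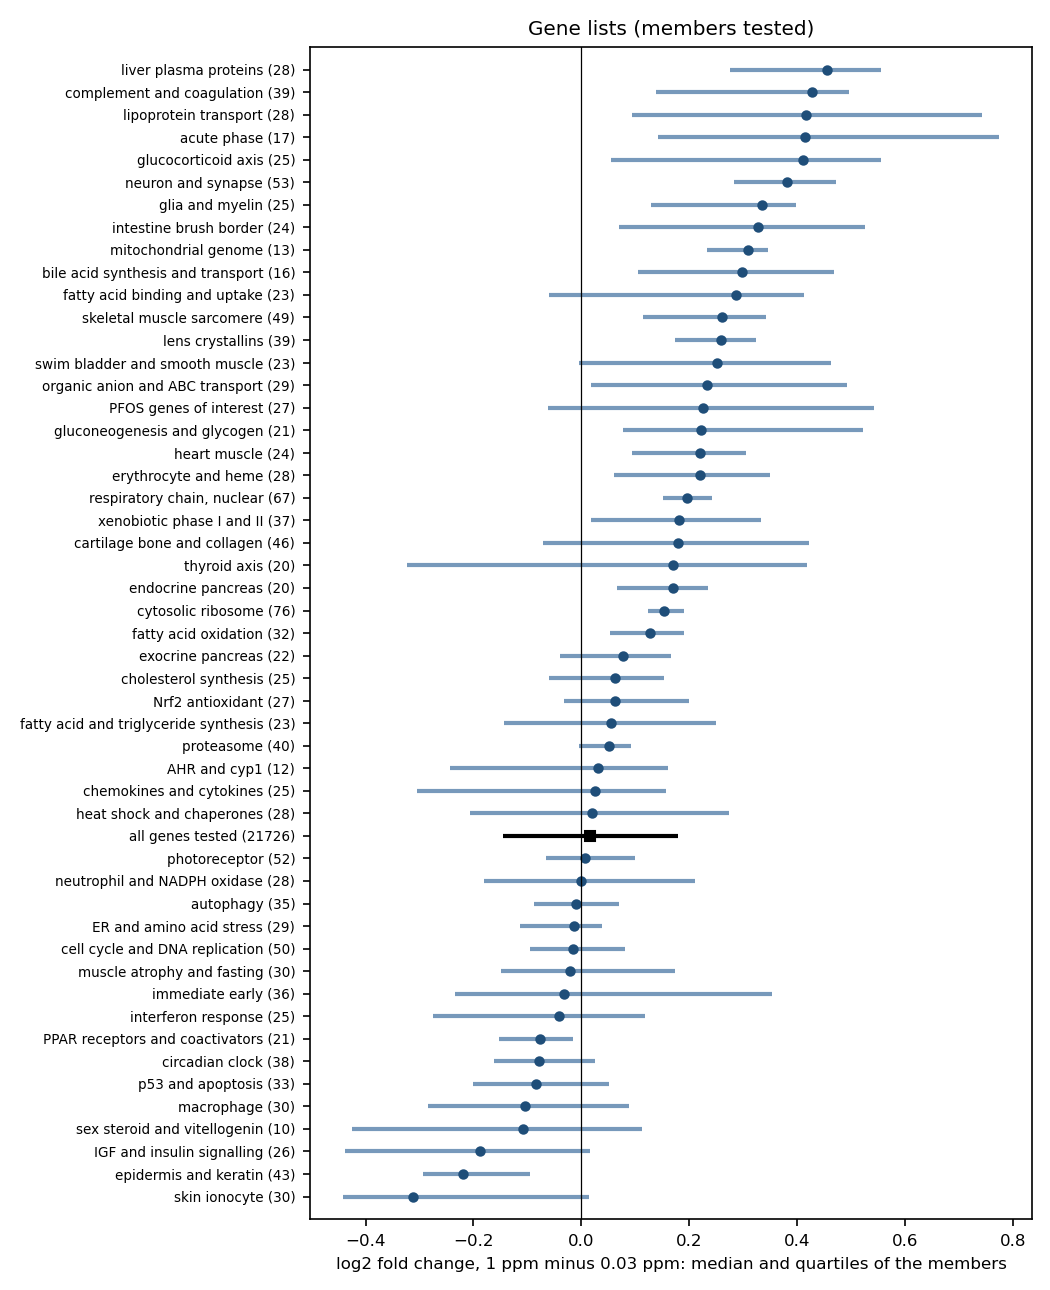
Median log2 fold change (1 ppm minus 0.03 ppm, points) and quartiles (bars) of the tested members of each of the 50 gene lists, with the number of members in brackets, and of all genes tested (black square). Liver plasma proteins have the highest median, 0.46, and skin ionocyte genes the lowest, -0.31.

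Genes of liver secretion had the highest medians. In the list of liver plasma proteins 26 of 28 members were higher at 1 ppm, with a median log2 fold change of 0.46. The groups did not overlap for 11 of them, all higher, where 2.90% of all genes did so. fabp10a (ENSDARG00000038439), the fatty acid binding protein of zebrafish liver, had 8319, 8592 and 6902 normalised counts at 0.03 ppm and 10938, 13627 and 14686 at 1 ppm. Each 1 ppm library exceeded each of 0.03 ppm, with means of 7938 ± 907 and 13084 ± 1932 (SD, n = 3; log2 fold change 0.72, SE 0.195, unadjusted p = 0.00526, limma adjusted p = 0.998). The transferrin gene tfa had 18037, 18120 and 15968 against 27018, 21564 and 31153 (log2 fold change 0.60, SE 0.220). The control mean of tfa was 13154, so its 0.03 ppm level lay between the control and 1 ppm.

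The summed share of the liver list in all counts overlapped between the doses, at 0.488%, 0.568% and 0.624% at 0.03 ppm and 0.671%, 0.552% and 0.656% at 1 ppm, with 1 ppm replicate 2 the lowest of its group. The median stayed between 0.38 and 0.54 when any single library was left out, and was 0.55 without replicate 2 of both groups.

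Complement and coagulation genes were higher in 32 of 39 members, with a median of 0.43. Of the 39, 9 were apart and higher and 1 apart and lower, against 2.90% and 3.51% of all genes. c5, a complement component, had 416, 527 and 394 normalised counts at 0.03 ppm and 777, 613 and 694 at 1 ppm (log2 fold change 0.64, SE 0.175). c8g, a subunit of the membrane attack complex, had 315, 325 and 342 against 417, 469 and 521, and the prothrombin gene f2 had 1522, 1836 and 1754 against 2581, 2007 and 2779. In all 3 genes the groups were apart. Leaving out 1 ppm replicate 3 lowered the median of this list to 0.24, and leaving out 1 ppm replicate 2 gave 0.52.

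Acute phase genes were higher in 14 of 17 members (median 0.41), among them crp above, crp2 and cp. Of the 17, 3 were apart and higher and 1 apart and lower, against 2.90% and 3.51% of all genes. The median ran from 0.31 to 0.49 with any single library left out, and the summed share of the list overlapped between the doses. crp2, a further pentraxin, had means of 275 ± 53.3 and 408 ± 48.1 normalised counts. cp, the copper carrier ceruloplasmin, had 575, 733 and 357 at 0.03 ppm and 725, 915 and 1229 at 1 ppm, with overlap. crp and crp2 belong to a multigene family, as do the apoa4b and keratin genes, and reads may be divided among such copies.

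Lipoprotein transport genes were higher in 23 of 28 members, with a median of 0.42. Groups were apart for 8 of the 28, all higher, against 2.90% of all genes. apoa4b.2 had 6759, 11141 and 11651 normalised counts at 0.03 ppm and 16294, 16823 and 17752 at 1 ppm (log2 fold change 0.82, SE 0.241). apoa1a, the main apolipoprotein of high density lipoprotein, had 20187, 40779 and 43842 against 60067, 40234 and 80221 (log2 fold change 0.81, SE 0.383), and its groups overlapped through 1 ppm replicate 2. The list took 1.11%, 1.34% and 1.63% of all counts at 0.03 ppm and 1.92%, 1.61% and 1.99% at 1 ppm. Only 1 ppm replicate 2 fell below a 0.03 ppm library. lpl, the lipase that unloads lipoproteins, had means of 1506 ± 360 and 1705 ± 334 (log2 fold change 0.19, SE 0.227).

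**Figure D5:**
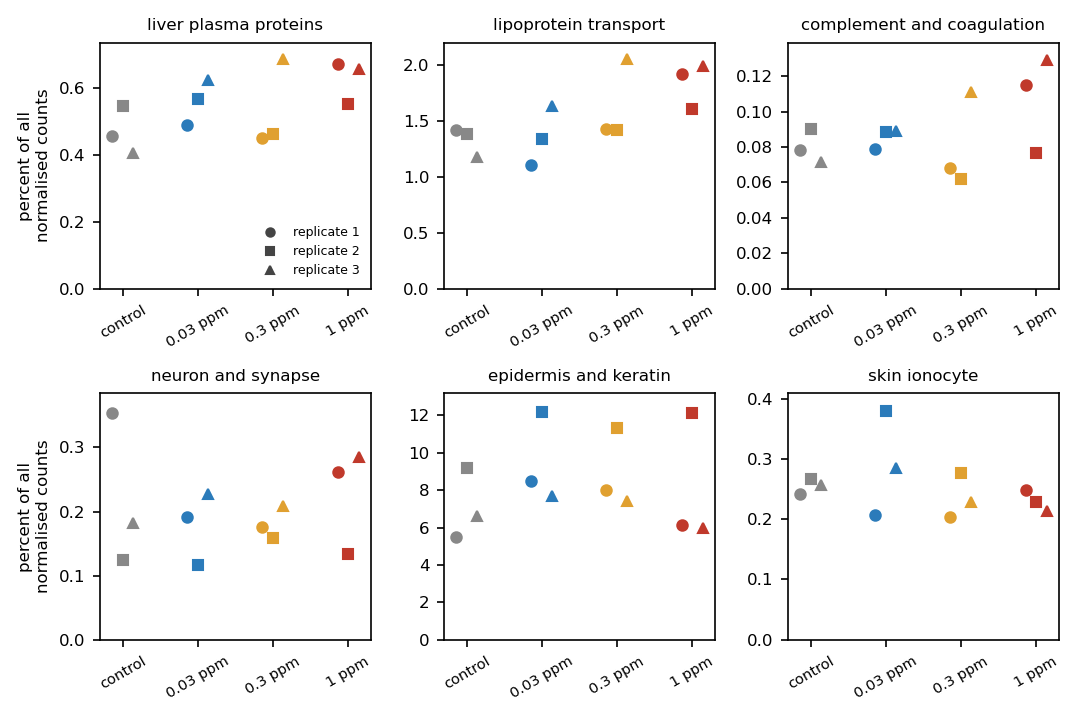
Summed normalised counts of 6 gene lists as a percent of all normalised counts, in each of the 12 libraries by dose, with shape giving the replicate. Epidermis and keratin genes take 12.2% and 12.1% in replicate 2 of 0.03 ppm and 1 ppm, and in none of the 6 lists are the 3 libraries of 1 ppm apart from those of 0.03 ppm.

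Genes of fatty acid handling were mixed. Of the 32 members of the fatty acid oxidation list 28 were higher, but by little, with a median of 0.13 and quartiles of 0.05 and 0.19. The median was 0.017 without 0.03 ppm replicate 3 and 0.19 without 0.03 ppm replicate 2. cpt1aa, the carnitine transferase that admits fatty acids to mitochondria, had 523, 473 and 485 normalised counts at 0.03 ppm and 574, 542 and 644 at 1 ppm, a log2 fold change of 0.25 (SE 0.149).

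Of the PPAR receptors and coactivators, 16 of 21 were lower at 1 ppm, by little (median -0.08), and the median was 0.09 without 0.03 ppm replicate 2. pparaa and pparab, the alpha receptors, had means of 231 ± 65.2 and 98.7 ± 43.7 normalised counts at 0.03 ppm and 223 ± 58.4 and 91.0 ± 28.5 at 1 ppm. pparg, the receptor of fat storage, had 170, 267 and 187 against 151, 133 and 140 (log2 fold change -0.53, SE 0.214), apart and lower. The pparg means were 140.7 in the controls, 139.3 at 0.3 ppm and 141.3 at 1 ppm, and 208 at 0.03 ppm. pparda had means of 255 ± 20.7 and 301 ± 49.2, with overlap.

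Fatty acid binding and uptake genes were higher in 16 of 23 (median 0.29). slc27a2a, a fatty acid transporter with acyl-CoA synthetase activity, had 1087, 1222 and 974 normalised counts against 1744, 1469 and 1521, with groups apart. fabp2, the intestinal fatty acid binding protein, had 10392, 12527 and 9989 against 14738, 12805 and 16808, also apart (log2 fold change 0.43, SE 0.198). Without 0.03 ppm replicate 2 the median of this list was 0.10. Fatty acid and triglyceride synthesis genes, to which fads2, elovl2 and me1 belong, were higher in 14 of 23 with a median of 0.05, so that those 3 did not stand for the list. fasn, the fatty acid synthase, had means of 1485 ± 433 and 1335 ± 113 (log2 fold change -0.12, SE 0.211). Cholesterol synthesis genes were higher in 16 of 25 (median 0.06). Of the 25, 0 were apart and higher and 1 apart and lower, against 2.90% and 3.51% of all genes. With 1 library left out, the medians of these 2 synthesis lists ran from -0.034 to 0.13 and from -0.027 to 0.17.

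Of 16 genes that make or carry bile acids 12 were higher (median 0.30). slc51a, a subunit of the bile acid exporter of the basolateral membrane, had 702, 629 and 748 normalised counts at 0.03 ppm and 1012, 859 and 1330 at 1 ppm (log2 fold change 0.60, SE 0.188), with groups apart. cyp7a1, the rate-limiting enzyme of bile acid synthesis, had 411, 488 and 426 against 660, 378 and 773, and its 1 ppm replicate 2 was the lowest of the 6 libraries. abcb11b, a bile salt export pump, had 268, 447 and 260 against 530, 436 and 426. Without 0.03 ppm replicate 3 the median of the list was 0.13.

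Xenobiotic enzymes of phase I and II were higher in 28 of 37 (median 0.18), 4 of them apart, against 2.90% of all genes. The median was 0.084 without 0.03 ppm replicate 3 and 0.28 without 0.03 ppm replicate 2. cyp3a65, a detoxifying cytochrome of liver and intestine, had 6620, 9573 and 5603 normalised counts against 11081, 10217 and 11884, apart and with a log2 fold change of 0.64 (SE 0.225). cyp1a, the target of the aryl hydrocarbon receptor, had 425, 427 and 235 against 617, 409 and 616 and overlapped (log2 fold change 0.62, SE 0.271). The list of that receptor and its cyp1 targets was split 6 higher and 6 lower. Organic anion and ABC transporters were higher in 22 of 29 (median 0.23, and 0.13 without 0.03 ppm replicate 3), with slc47a1, an exporter of organic cations, at 279, 237 and 193 against 338, 334 and 383.

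Gluconeogenesis and glycogen genes were higher in 17 of 21 members (median 0.22). Of the 21, 5 were apart, all higher, against 2.90% of all genes. The median was 0.39 without 0.03 ppm replicate 2, 0.40 without 1 ppm replicate 2 and 0.49 without both. It was 0.16 without 1 ppm replicate 3 and 0.20 without 0.03 ppm replicate 3. pck1 (ENSDARG00000013522), the phosphoenolpyruvate carboxykinase that commits carbon to glucose, had 4040, 3426 and 2128 normalised counts at 0.03 ppm and 6562, 4575 and 5697 at 1 ppm (log2 fold change 0.85, SE 0.255, unadjusted p = 0.00913, limma adjusted p = 0.998). pygl, the glycogen phosphorylase of liver, had 1533, 1539 and 1444 against 2043, 1962 and 2735 (log2 fold change 0.56, SE 0.169). Both genes had the groups apart. Genes of the glucocorticoid axis, which include pck1 and g6pca.1, were higher in 19 of 25 (median 0.41, and 0.21 without 0.03 ppm replicate 2). tsc22d3, a glucocorticoid-induced leucine zipper, had 2272, 2342 and 2237 against 2883, 3006 and 3525 (log2 fold change 0.45, SE 0.149), with groups apart.

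Insulin-like growth factor and insulin signalling genes had 19 of 26 members lower (median -0.19). Of the 26, 2 were apart, both lower, against 3.51% of all genes. The median was -0.10 without 1 ppm replicate 2 and -0.066 without replicate 2 of both groups. igfbp5a, a binding protein of these growth factors, had 538, 1234 and 679 normalised counts at 0.03 ppm and 533, 421 and 381 at 1 ppm. The groups were apart only narrowly, and 0.03 ppm replicate 2 was far above the rest. socs2, an inhibitor of growth hormone signalling, had 268, 458 and 341 against 247, 244 and 227.

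Intestine brush border genes were higher in 20 of 24 (median 0.33). The groups were apart for only 1 of them, fabp2, a share near the 2.90% of all genes. slc15a1a, a peptide transporter, had 200, 284 and 222 normalised counts against 503, 277 and 453, alpi.2, the intestinal alkaline phosphatase, had 288, 386 and 212 against 463, 383 and 489, and slc13a2, a carrier of dicarboxylates, had 989, 1432 and 665 against 1923, 1395 and 1679. In each of these 3 genes 1 ppm replicate 2 was the lowest of its group and 0.03 ppm replicate 2 the highest of its own. The median of the list was 0.15 without 1 ppm replicate 1, 0.16 without 0.03 ppm replicate 3, 0.56 without 1 ppm replicate 2 and 0.70 without replicate 2 of both groups. Exocrine pancreas genes had a median of 0.08, which ran from -0.61 without 0.03 ppm replicate 1 to 0.69 without 0.03 ppm replicate 2.

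Nervous system genes were higher in every tested member of the neuron and synapse list, 53 of 53, with a median log2 fold change of 0.38 and quartiles of 0.28 and 0.47. Of the 53, 3 had groups apart and higher, where 2.90% of all genes did. grin1a, a subunit of the NMDA glutamate receptor, had 1824, 1738 and 1839 normalised counts at 0.03 ppm and 2441, 2437 and 2172 at 1 ppm (log2 fold change 0.38, SE 0.140). The controls of grin1a were at 3203, 1754 and 1863. th, the tyrosine hydroxylase of dopamine synthesis, had 58, 40 and 48 against 79, 64 and 87, and gria2a, an AMPA receptor subunit, 639, 517 and 654 against 889, 747 and 756. The list took 0.192%, 0.116% and 0.227% of all counts at 0.03 ppm and 0.262%, 0.134% and 0.285% at 1 ppm. Replicate 2 was the lowest library of both groups, the same libraries in which epidermis genes were highest, and the part of this in the median was not tested. Without 0.03 ppm replicate 2 the median was 0.13, without 1 ppm replicate 2 it was 0.71, and without both it was 0.44. Glia and myelin genes were higher in 22 of 25 (median 0.34), with 0 members apart and a median of 0.03 without 0.03 ppm replicate 2.

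In several large lists almost every member was slightly higher at 1 ppm and none had groups apart. These were cytosolic ribosome genes (75 of 76, median 0.15), nuclear respiratory chain genes (66 of 67, median 0.20), lens crystallins and lens membrane genes (37 of 39, median 0.26) and transcripts of the mitochondrial genome (12 of 13, median 0.31). The ribosome list took 10.6%, 9.77% and 9.25% of all counts at 0.03 ppm and 9.05%, 12.3% and 10.8% at 1 ppm, with the lowest library in the 1 ppm group. Its median was -0.02 without 1 ppm replicate 2, and that of the lens list -0.24 without 0.03 ppm replicate 3. The median of the mitochondrial list was 0.00 without replicate 2 of both groups, and that of the respiratory chain list 0.10 without 0.03 ppm replicate 3 and 0.30 without 0.03 ppm replicate 1. Skeletal muscle sarcomere genes were higher in 46 of 49 (median 0.26), 2 of them apart, a share near the 2.90% of all genes. The share of the muscle list lay between 9.31% and 12.5% at 0.03 ppm and between 11.6% and 12.2% at 1 ppm, and the median stayed between 0.17 and 0.41 when any single library was left out. mybpc1, a myosin binding protein of slow muscle, had 853, 528 and 754 normalised counts against 954, 883 and 970.

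Skin genes had lower values at 1 ppm. Epidermis and keratin genes were lower in 36 of 43 (median -0.22), with krt96 as the only member apart, where 3.51% of all genes were apart and lower. Their share overlapped widely, as given above for replicate 2, and the median was -0.01 without 0.03 ppm replicate 2 and -0.51 without 1 ppm replicate 2. Skin ionocyte genes, of the cells that exchange ions with the water, were lower in 22 of 30 (median -0.31), with 0 members apart. trpv6, the epithelial calcium channel, had 2075, 5457 and 2711 normalised counts at 0.03 ppm and 2136, 1829 and 1740 at 1 ppm. foxi3b, the transcription factor that specifies ionocytes, had 746, 1435 and 876 against 597, 892 and 542. In both genes 0.03 ppm replicate 2 was the highest of the 6 libraries, and without it the median of the list turned to 0.05.

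Immune genes were split between the sides. Interferon response genes were higher in 12 of 25 (median -0.04). ifit14, an interferon-induced gene, had 5, 15 and 10 normalised counts at 0.03 ppm and 82, 90 and 28 at 1 ppm (log2 fold change 2.57, SE 0.527, unadjusted p = 0.000914, limma adjusted p = 0.998), with groups apart and controls at a mean of 23.0. mxc, an antiviral GTPase, went the opposite way in its means, 122 ± 49.3 against 76.0 ± 19.5, with overlap. stat1b, a transcription factor of interferon signalling, had 9, 32 and 18 against 26, 28 and 21. Macrophage genes were lower in 18 of 30 (median -0.11, and 0.043 without 0.03 ppm replicate 2), with mpeg1.2, a perforin-like gene of macrophages, at 352, 567 and 514 against 318, 462 and 308.

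Neutrophil and NADPH oxidase genes were split 14 and 14. noxo1a and noxa1 encode the organizer and the activator of an NADPH oxidase that makes superoxide. noxo1a had 218, 249 and 326 normalised counts at 0.03 ppm and 111, 201 and 176 at 1 ppm (log2 fold change -0.72, SE 0.261). noxa1 had 24, 36 and 26 against 11, 15 and 11 (log2 fold change -1.15, SE 0.331). Both had groups apart. lyz, the lysozyme of myeloid cells, was higher, at 764, 366 and 847 against 1058, 1032 and 1035. Among chemokine and cytokine genes il2rga, the common gamma chain of interleukin receptors, had 36, 43 and 38 against 24, 11 and 18.

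Immediate early genes are known to respond within minutes to handling and other stimuli. Their median was -0.03 (17 of 36 higher), and ran from -0.59 without 0.03 ppm replicate 2 to 0.37 without 0.03 ppm replicate 1. klf2a, a transcription factor that responds to blood flow, was the only member apart, a share near the 2.90% of all genes apart and higher. It had 1118, 913 and 1745 normalised counts against 2011, 1983 and 2736 (log2 fold change 0.87, SE 0.249, unadjusted p = 0.00690, limma adjusted p = 0.998). Its relative klf2b had 4322, 2489 and 5107 against 1820, 3307 and 1429, with overlap and a log2 fold change of -0.89 (SE 0.348). fosab, a gene of the AP-1 factor chosen after its values were seen, had 7561, 225 and 7594 normalised counts at 0.03 ppm and 2513, 5547 and 1926 at 1 ppm. Replicate 2 was the lowest library of one dose and the highest of the other, and the log2 fold change, 0.35 (SE 1.18), had the opposite sign to the difference of the means, 5127 and 3329. With replicate 2 of both groups left out, 7 genes passed the test, 2 higher and 5 lower: FO904928.1 and F7 on one side and fosab, junba, IER2, ch25h and elf3 on the other. Each of these 5 was lower in 1 ppm replicates 1 and 3 than in 0.03 ppm replicates 1 and 3. They were picked after their values were seen, by a fit of all genes on those libraries alone, so this order is a description. Passing that fit, and not the immediate early list, was the ground for naming them. Without 0.03 ppm replicate 1 the log2 fold change was 0.37 for junba and 0.36 for IER2. With any single library left out it ran from -2.41 to -0.66 for ch25h and from -1.67 to -0.84 for elf3.

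Lists of basic cell processes, vision and stress had medians between -0.09 and 0.06, which with 1 library left out ran from -0.15 (endoplasmic reticulum and amino acid stress) to 0.19 (photoreceptor). Cell cycle and DNA replication genes had a median of -0.01 with quartiles of -0.10 and 0.08 over 50 members, proteasome genes one of 0.05 over 40, autophagy genes -0.01 over 35, and endoplasmic reticulum and amino acid stress genes -0.01 over 29. Photoreceptor genes had a median of 0.01 over 52 members. Heat shock genes and chaperones (28 tested) and Nrf2 antioxidant genes (27 tested) had medians of 0.02 and 0.06. Of the antioxidant enzymes, cat, the catalase, had means of 2183 ± 314 and 2485 ± 204 normalised counts, and sod1, a superoxide dismutase, 4045 ± 762 and 4732 ± 917. The heat shock gene hsp70l had 69, 40 and 116 against 72, 42 and 108, a ratio of 0.987 with a 95% interval of 0.503 to 2.01. In p53 and apoptosis genes 21 of 33 were lower (median -0.09).

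Further tissues and hormone axes showed single genes apart in both directions. In the list of swim bladder and smooth muscle, higher in 17 of 23 (median 0.25), desmb, a desmin of smooth muscle, had 384, 387 and 536 normalised counts at 0.03 ppm and 659, 555 and 655 at 1 ppm. The control mean of desmb, 606, was nearer to the 1 ppm mean of 623 than to the 0.03 ppm mean of 436. tagln, the actin binding protein transgelin, had 797, 595 and 892 against 995, 910 and 1392. The other 2 members apart, named after their values were seen, were lower: the surfactant protein gene sftpbb, at 192, 206 and 186 against 139, 169 and 158, and the growth factor gene fgf10a, at 167, 158 and 152 against 119, 147 and 151. Over all genes 2.90% were apart and higher and 3.51% apart and lower. The median of the list was 0.12 without 1 ppm replicate 3 and 0.40 without 1 ppm replicate 2. Heart muscle genes were higher in 19 of 24 (median 0.22), with 0 apart and a median of -0.14 without 0.03 ppm replicate 2. For cartilage, bone and collagen the median was 0.18, with 29 of 46 members higher, and was 0.050 without 0.03 ppm replicate 2 and 0.38 without 1 ppm replicate 2. Of its members 2 were apart, both lower, a share near the 3.51% of all genes. These were fmodb, a small proteoglycan of the fibromodulin kind, at 520, 1158 and 792 against 385, 510 and 122, and runx2b, a transcription factor of bone formation, at 38, 33 and 33 against 25, 16 and 28.

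Erythrocyte and heme genes were higher in 23 of 28 (median 0.22). Of the 28, 2 were apart and higher and 3 apart and lower, against 2.90% and 3.51% of all genes. The median was 0.018 without 0.03 ppm replicate 2, 0.040 without replicate 2 of both groups and 0.42 without 0.03 ppm replicate 1. fech, the enzyme that inserts iron into heme, had 212, 219 and 210 normalised counts at 0.03 ppm and 188, 167 and 127 at 1 ppm. slc25a38a, the mitochondrial glycine carrier of heme synthesis, had 27, 19 and 8 against 39, 42 and 39. Circadian clock genes were lower in 26 of 38 (median -0.08), and the median was 0.026 without 0.03 ppm replicate 2 and 0.025 without 1 ppm replicate 3. clockb, a core activator of the clock, had 677, 827 and 808 against 741, 507 and 474, and nr1d2a, a repressor of the same loop, 1741, 1494 and 1341 against 2496, 1800 and 2087. The thyroid axis was higher in 12 of 20, with a median of 0.17, which was 0.022 without 0.03 ppm replicate 2 and -0.044 without replicate 2 of both groups. Of the 20 thyroid axis genes, 3 were apart and higher and 1 apart and lower, against 2.90% and 3.51% of all genes. In this list dio3b, the deiodinase that inactivates thyroid hormone, had 748, 727 and 482 against 452, 333 and 536, with overlap. Endocrine pancreas genes were higher in 16 of 20 (median 0.17, and -0.061 without 1 ppm replicate 3). Sex steroid and vitellogenin genes were higher in 4 of 10 (median -0.11, and 0.035 without 1 ppm replicate 1).

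A panel held 27 genes often examined with PFOS or named by earlier comparisons of these data. Of these 19 were higher and 8 lower (median 0.23). Of the 27, 6 were apart and higher and 3 apart and lower, against 2.90% and 3.51% of all genes. Because part of the panel was named from these same data, its counts are a description. Most of the panel is given above. ttr, the carrier of thyroid hormone, had 955, 950 and 1101 normalised counts at 0.03 ppm and 834, 1711 and 980 at 1 ppm. il1b, the inflammatory cytokine, had 43, 13 and 64 against 34, 44 and 32. fabp1a, a fatty acid binding protein, had low counts, at 14, 4 and 7 against 13, 19 and 9. In all 3 the groups overlapped.

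A last set was of genes that earlier comparisons of the same data had found below the solvent control at one or more doses. Those comparisons share the 0.03 ppm or 1 ppm libraries and chose the genes because these were low, so the values here are a description. Ratios are of the group means, and their intervals come from the log2 fit. In the muscle list of atrophy genes, trim63a, a ubiquitin ligase of muscle, had 994, 784 and 768 normalised counts at 0.03 ppm and 736, 690 and 749 at 1 ppm, against a control mean of 1713. The groups did not overlap, but the ratio of 1 ppm to 0.03 ppm was 0.854, with a 95% interval, not adjusted for the number of genes, of 0.671 to 1.1. fbxo32, the atrogin-1 ligase, had 113, 347 and 168 against 163, 122 and 147, with controls at a mean of 740. Its ratio of 0.688 had an interval of 0.430 to 1.36 and turned above 1 without 0.03 ppm replicate 2, the library at 347.

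mkrn1, a further ubiquitin ligase, had 711, 784 and 806 normalised counts at 0.03 ppm and 753, 755 and 863 at 1 ppm, with controls at a mean of 1496. Its interval, for a ratio of 1.03, ran from 0.820 to 1.29. DUSP27, of the dual-specificity phosphatase family, had 622, 583 and 463 against 650, 494 and 574 (ratio 1.03, interval 0.779 to 1.37), and lygl1, a goose-type lysozyme, 207, 240 and 168 against 188, 209 and 231 (ratio 1.02, interval 0.757 to 1.4). calcoco1b, of a family of autophagy receptors, had 47, 84 and 88 against 75, 63 and 58 (ratio 0.895, interval 0.587 to 1.46). Of the 9 genes in this set, which also holds krt96, stat1b and mpeg1.2 above, krt96 and trim63a were the ones whose groups did not overlap. Both were lower at 1 ppm, where 3.51% of all genes were apart and lower. The set was chosen for low values in comparisons that share these libraries, so the count is a description.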

How the data were processed

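RNA-seq values of 12 libraries of pooled whole zebrafish larvae were used, of which 6 entered the comparison. The authors deposited a normalised count for each gene as a whole number, treated here as a score and not as a raw count, so read depth could not be recovered from them. Per the submitters' processing notes, the tools included DESeq2 1.10.1, STAR 2.5.1b, CASAVA and RSEM 1.2.28 and the build was GRCz10, with roles and settings not given in the sources used here. The labels give reads of 76 bases, from 500 ng of total RNA. A table of the whole series was not used.

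Genes that reached 10 in 3 or more of the 6 libraries were tested on log2(value + 1), with a pseudocount of 1, by limma 3.58.1 in R 4.3.3 with a mean-variance trend, two-sided, with Benjamini-Hochberg adjustment over all genes tested and a threshold of 0.05. An exact permutation test of 3 against 3 libraries cannot go below p = 0.1. Fold changes on the log2(value + 1) scale understate differences of low genes. The step was tested on simulated data. Genes were named as the 12 of each direction with the smallest p among genes with a symbol, a mean of at least 50 and no overlap, up to 3 members with the smallest p in each list described, and the panel of PFOS genes. One of the genes higher at 1 ppm and one of the panel are not reported here. Other genes are said to be chosen after their values were seen. The 50 lists held 1632 symbols, of which 1544 matched a gene in the files and gave 1458 tested genes; members and lists were chosen with earlier results of these data known. Gene names come from the files, with a reference table of gene names used for FO904928.1. Figures were drawn with matplotlib 3.10.9 in Python 3.11.15, with pandas 2.3.3 and NumPy 2.4.6. Alternatives covered the libraries in the fit, a replicate block, scaling, pseudocount, filter, the empirical Bayes step, library weights and each library left out.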

Additional observations from a re-analysis of the deposited data

Results flagged for a closer look

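FO904928.1, the gene called between 1 ppm and 0.03 ppm, also had counts in the 0.3 ppm libraries, which the comparison did not use: the lowest had 16 and the highest 72 normalised counts, where the 3 solvent controls were listed at 0. The heat shock gene hsp70l stood at 6069 normalised counts in replicate 2 of 0.3 ppm, likewise outside the comparison, while the 3 controls averaged 89.0 and the 0.03 ppm and 1 ppm libraries averaged 75 and 74.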

How the results depend on the processing

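The number of genes called was 1, with FO904928.1 as that gene, under 12 alternatives that kept all 6 libraries, and was 0 with a filter of 10 or more in all 6 libraries (636 genes at an unadjusted p under 0.05) or a mean of at least 50 (534 genes), since both filters remove that gene. Leaving out 1 library gave 0 to 2 calls. One of them, without 1 ppm replicate 1, was adob (log2 fold change -6.68, limma adjusted p = 0.0256), which had overlapping groups over all 6 libraries. It was named after its values were seen and passed in that fit alone. With any single library left out its log2 fold change ran from -6.68 to -3.66. The adjusted p of adob thus rests on leaving out that library and is a description. Leaving out a replicate number of both groups gave 0 (replicate 1), 7 (replicate 2) and 0 (replicate 3), with 937 and 204 genes at an unadjusted p under 0.05 for the numbers that gave 0.

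Replicate numbers were not taken to pair the samples. Deviations of same-numbered libraries correlated at 0.0387, 0.448 and 0.207 for replicates 1, 2 and 3, and not every library correlated best with its own number. With the replicate block, 1 gene was called and 1784 genes had an unadjusted p under 0.05, against 691 without the block. With 1 library of each number in each group, the block cannot change a log2 fold change or a list median. It gave no other call.

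Of 50 list medians 35 were above 0, and 31 to 38 under the alternatives. Scaling to equal totals moved the median of all genes from 0.02 to -0.02 and turned those of the AHR, heat shock, chemokine and photoreceptor lists below 0. It gave hsp70l a log2 fold change of -0.030. Summing FO904928.1 with sh3bp5a gave -0.016.

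Among 103 named genes, 17 changed sign under some alternative, and none of the 11 higher or 12 lower genes was among them. Those genes were named for groups without overlap, so leaving libraries out could not reverse their sign. Their absence is therefore no measure of stability. Of the 17 that changed sign, FO904928.1 was counted only through its sum with sh3bp5a, while the others changed sign in their own values. With 1 library left out, their log2 fold changes ran from -0.37 to 0.38 for hsp70l, -0.023 to 0.079 for mkrn1, -1.30 to 0.37 for junba, -1.36 to 0.36 for IER2, -0.75 to 0.053 for fbxo32, -0.015 to 0.36 for lpl, -0.30 to 0.10 for fasn, -0.52 to 0.59 for il1b, -0.30 to 0.26 for pparab, -0.25 to 0.17 for pparaa, -0.40 to 0.046 for calcoco1b, -1.34 to 1.2 for fosab, -0.095 to 0.16 for lygl1, -0.081 to 0.15 for DUSP27, -0.14 to 0.37 for ttr and -0.23 to 0.030 for sh3bp5a. Without replicate 2 of both groups they were 0.17 for fbxo32, -0.18 for ttr, 0.045 for fasn, -0.65 for il1b, 0.036 for pparab, -0.021 for hsp70l, 0.035 for calcoco1b and -1.78 for fosab. The cause was not tested. With 3 libraries a group and pooled larvae, the interval of a typical gene, not adjusted for the number of genes, reached 1.44-fold to either side. The adjusted test was stricter than that interval. For cda and fads2 the ratios of the group means, higher dose over lower, were 2.31 and 2.17. Neither gene passed the adjusted test (limma adjusted p = 0.972 for both).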
